A study of Mus musculus with 22 samples.

Results

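The ribosome-bound RNA of ethanol-treated mice was compared with the total-RNA of the same animals. The members were the 8 libraries of the EtOH group, of 22 libraries in the series: 4 TRAP libraries and 4 total-RNA libraries, paired by the animal they came from (animals 2, 5, 8 and 9). TRAP (translating ribosome affinity purification) pulls down ribosomes that carry a tag made only in a chosen cell type and sequences the RNA attached to them, and total-RNA was taken from the same tissue lysate before the pull-down. In these mice the tagged subunit was an EGFP/Rpl10a fusion placed behind a tetO promoter and switched on by tTA under the CaMKIIα promoter, on a C57BL/6J background, and every group of the series carried it. Male mice of 8 to 12 weeks received ethanol intraperitoneally, 2 injections a day to a daily dose of 2 g/kg, for 4 days, and the prefrontal cortex (PFC) was collected 2 h after the last injection. The ratios were set beside those of 3 Control mice, which received saline, and of 4 EtOH + ABT-888 mice, which received the same ethanol and, on the last day, the PARP inhibitor ABT-888 at 25 mg/kg.

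A ribosome moves along the coding part of an mRNA and makes the protein it encodes, so RNA that comes down with a tagged ribosome is mostly mRNA in the cytoplasm of the tagged cells. CaMKIIα is a kinase of the postsynapse that is abundant in forebrain projection neurons: the glutamatergic pyramidal cells of the cortex, and also the GABAergic projection neurons of the striatum, which lies beneath it. Glia, vessels and most cortical interneurons lack it, and mitochondria translate their own mRNAs on ribosomes that contain no Rpl10a. The ratio of TRAP to total-RNA therefore mixes 2 quantities, the share of a transcript that lies in tagged cells and its engagement with ribosomes there.

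The 4 TRAP libraries held 13822758 (animal 2), 22002618 (animal 5), 21892234 (animal 8) and 14758420 (animal 9) counted reads, and the total-RNA libraries 22132534 to 31606619. Levels are given as normalized CPM, read counts scaled to the size of the library, and the log2 fold change is that of TRAP over total-RNA within animals. The TRAP library of animal 2 stood apart from the other TRAP libraries: on the first principal component, which carried 72.4% of the variance and separated the pools, it lay closest to the total-RNA libraries, and on the second (8.77%) it scored 65.3 against -24.2 to -3.53 in the others. Across transcripts the log2 ratio of animal 2 correlated with that of the other animals at r = 0.786 to 0.791, and those of animals 5, 8 and 9 with each other at r = 0.827 to 0.884.

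Of 14072 transcripts tested, 8276 (58.8%) differed between the pools at an adjusted p under 0.05, with 3951 (28.1%) higher and 4325 (30.7%) lower in TRAP. A change of at least 2-fold was less even: 1159 transcripts (8.24%) were at least 2-fold higher and 2735 (19.4%) at least 2-fold lower. The log2 ratio had the same sign in all 4 animals for 8073 of the called transcripts. The median log2 fold change over all transcripts was 0.01. Because most transcripts were called, the counts in each gene group below are read against these shares. Of the transcripts tested, 4252 have exons that overlap a gene on the other strand, and the strand setting of the counting is not given in the sources used here, so reads of both genes cannot be told apart; such genes are marked with † when they are named.

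**Figure D1:**
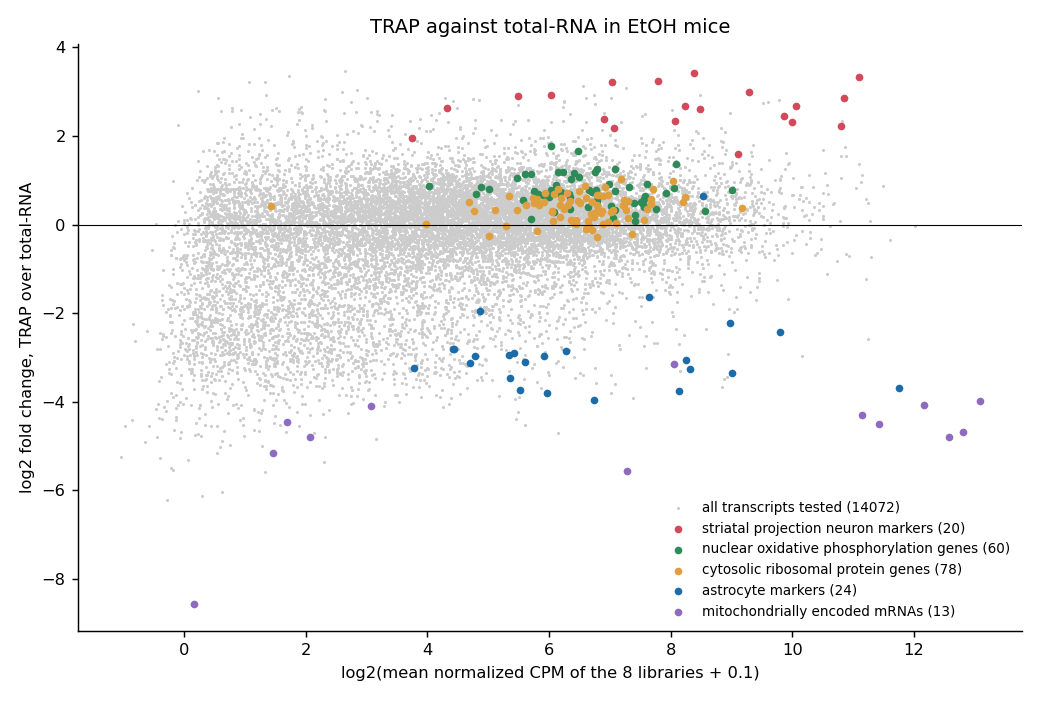
Log2 fold change of TRAP over total-RNA (y axis) against the log2 of the mean normalized CPM of the 8 EtOH libraries plus 0.1 (x axis), 1 point per transcript, with 5 gene groups coloured. The 20 striatal projection neuron markers lie above 1.5, the 13 mitochondrially encoded mRNAs below -3, and the ribosomal protein genes close to 0.

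The targeting of the tag was examined first. Camk2a, whose promoter drives the tag, had 2433, 2307, 2792 and 2679 CPM in TRAP of animals 2, 5, 8 and 9 and 2216, 2604, 2596 and 2247 CPM in total-RNA. The pools overlapped, and the log2 fold change was 0.08 (SE 0.11, adjusted p = 0.55). Rpl10a†, the tagged ribosomal subunit, had 52.6, 61.7, 86.1 and 94.2 CPM in TRAP and 47.4, 46.7, 64.0 and 50.4 CPM in total-RNA, a log2 fold change of 0.47 (SE 0.13, adjusted p = 0.012). Each animal's normalized Rpl10a† level was higher in TRAP than in its own total-RNA, but the ranges of the pools overlapped. S100b, a calcium-binding protein of astrocytes, had 18.95, 4.42, 10.9 and 9.95 CPM in TRAP against 74.6, 61.8, 86.3 and 76.0 CPM in total-RNA. The pools were far apart and the log2 fold change was -2.90 (SE 0.25, adjusted p = 1.7e-05), with the least depletion in animal 2.

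Transcripts of cells that should lack the tag were low in TRAP in every animal. Of 24 astrocyte markers tested, 23 were lower and 1 higher, with a median log2 fold change of -3.02. Of 26 markers of oligodendrocytes and their precursors, 25 were lower and none higher (median -3.25), and of 22 microglia markers 21 were lower and 1 higher (median -3.27). Endothelial and mural markers gave 21 of 24 lower and none higher (median -3.05), and choroid plexus and meningeal markers 9 of 11 lower and 1 higher (median -3.13). Both pools of an animal came from the same lysate, with RNA of all its cells in total-RNA and mainly RNA of the tagged cells in TRAP. Between animals of this bulk tissue, fewer cells of a type and less RNA per cell cannot be told apart.

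An astrocyte gene and a microglial gene show the size of the depletion and how it varied between animals. Slc1a3, a glutamate transporter of astrocytes, had 86.7, 22.9, 35.7 and 30.2 CPM in TRAP and 472 to 551 CPM in total-RNA (log2 fold change -3.76, SE 0.27, adjusted p = 8.3e-06). Ctss, a lysosomal protease of microglia, had 11.1, 2.37, 6.81 and 1.70 CPM in TRAP against 76.9, 39.8, 65.1 and 33.8 CPM in total-RNA (-3.52, SE 0.24, adjusted p = 6.6e-06). For both genes the TRAP level was highest in animal 2, and TRAP and total-RNA did not overlap. The lowest TRAP level was that of animal 5 for Slc1a3 and of animal 9 for Ctss. Over the lists, the astrocyte markers had a median log2 ratio of -1.98 in animal 2, -4.13 in animal 5, -3.35 in animal 8 and -2.96 in animal 9. With animal 2 left out, the fitted median of the astrocyte list was -3.36 and the same counts of 23 lower and 1 higher were called. Members of these lists that were higher in TRAP were Slc4a4, a bicarbonate cotransporter (0.65), Cd68, a lysosomal membrane protein (0.76), and Clic6, a chloride channel family member (2.15). Cd68 was not called without animal 9 or without the animal as a block. Clic6 had 41.7, 35.8, 13.4 and 18.7 CPM in TRAP and 1.85 to 11.3 CPM in total-RNA.

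**Figure D2:**
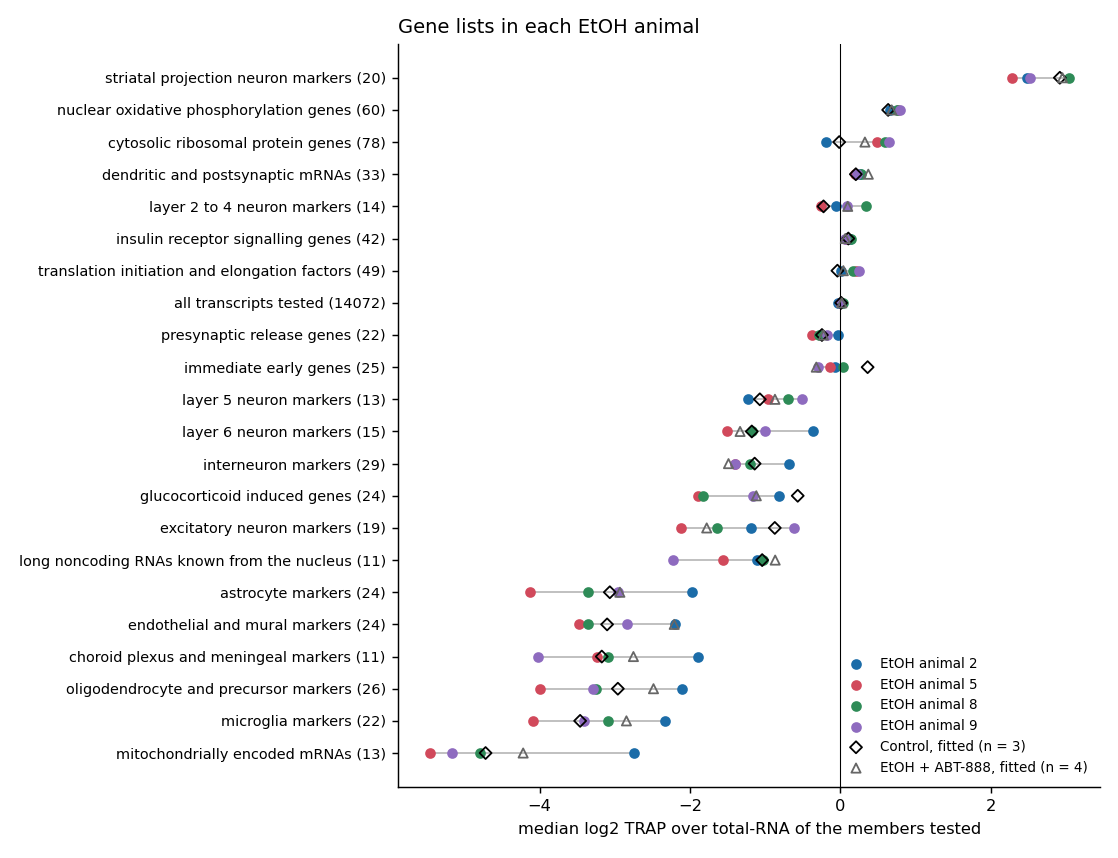
Median log2 TRAP over total-RNA of the members tested (x axis) for each gene list and for all transcripts (y axis, number tested in parentheses), with 1 filled point per EtOH animal, a grey line over their range, and open symbols for the fitted medians in Control and in EtOH + ABT-888. The glial and vascular lists sit near -3 with animal 2 nearest to 0, and the striatal list sits between 2.29 and 3.04.

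The neuronal markers followed the cortical pyramidal label only in part. Of 19 excitatory neuron markers tested, 11 were lower in TRAP, all by at least 2-fold, 7 were higher, and Camk2a was not called (median log2 fold change -1.57). The summed level of the list went the other way, at 10540 to 11720 CPM in TRAP and 8003 to 8973 CPM in total-RNA on the scale set over all 22 libraries, and Nrgn, Arpp21†, Camkv, Ptk2b and Baiap2 among its members with many reads were higher in TRAP. Those that were lower include the genes that define glutamatergic cortical cells. Slc17a7, the vesicular glutamate transporter of cortical excitatory neurons, had 302, 105, 149 and 394 CPM in TRAP and 802, 874, 885 and 721 CPM in total-RNA (-1.97, SE 0.32, adjusted p = 0.00056). All 4 TRAP values lay below all 4 total-RNA values, with animals 2 and 9 less depleted than animals 5 and 8. Tbr1, a transcription factor of deep-layer and early-born cortical neurons, had 35.3, 10.3, 30.2 and 66.5 CPM in TRAP and 142 to 197 CPM in total-RNA (-2.51, SE 0.29, adjusted p = 8.1e-05). Neurod6 (-2.98), Neurod1† (-2.32), Neurod2 (-1.87) and Emx1 (-1.30), further transcription factors of the pyramidal lineage, were lower too. The 7 members that were higher were Arpp21† (1.68), Camkv (1.37), Baiap2 (1.30), Itpka (1.26), Nrgn (1.16), Ptk2b (0.70) and Lmo4 (0.55). Slc17a7 and the pyramidal transcription factors were still read in TRAP, Slc17a7 at 105 CPM in the library where it was lowest.

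The layer markers held members of both directions. In the layer 5 list 6 of 13 were higher and 7 lower (median -0.96), and in the layer 6 list 5 of 15 higher and 8 lower (median -1.14). In the layer 2 to 4 list 4 of 14 were higher and 6 lower (median 0.26), where 28.1% of all transcripts were higher and 30.7% lower. The summed level of the layer 5 list was 1528 to 2117 CPM in TRAP and 749 to 856 CPM in total-RNA. That of the layer 2 to 4 list was 1435 to 1798 CPM and 1096 to 1226 CPM. Of this list, Wfs1 alone had 1014, 833, 600 and 454 CPM in TRAP of animals 2, 5, 8 and 9. In total-RNA it had 235, 256, 158 and 122 CPM. In each animal the gap of Wfs1 between the pools was larger than that of the summed list. Fezf2 (-2.66), the transcription factor that specifies subcerebral projection neurons, Npr3† (-3.07), Ntsr1 (-2.23), a neurotensin receptor of corticothalamic neurons, Cplx3 (-2.88) and Rorb (-2.84), a layer 4 nuclear receptor, were among those lower. Those higher included Pcp4 (2.18), Rbp4 (1.85), Syt6† (1.74), Bcl11b (1.59), Oprk1 (1.55) and Foxp2 (1.10) of the deep layers, and the 4 of the layer 2 to 4 list, Wfs1 (1.89), Otof (1.16), Calb1 (0.65) and Lamp5 (0.56). At least Bcl11b, Foxp2 and Pcp4 are also known from striatal projection neurons, and whether the other higher members came from cortical cells was not tested. Bcl11b had 585, 591, 536 and 472 CPM in TRAP and 159, 212, 159 and 199 CPM in total-RNA, with no overlap (SE 0.12, adjusted p = 9.5e-06).

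All 20 striatal projection neuron markers were at least 2-fold higher in TRAP, with a median log2 fold change of 2.65 and a range of 1.59 to 3.41. Their summed level was 18970 to 22640 CPM in the 4 TRAP libraries and 2939 to 4237 CPM in the total-RNA libraries, on a scale set over all 22 libraries. These transcripts were thus present in the PFC lysates before any pull-down, and their source was not tested. The same list had a median of 2.92 in the 3 Control mice and 2.96 in the EtOH + ABT-888 mice, and none of its members differed in ratio between EtOH and either group. Adora2a (chr10:75316877-75334784, mm10), an adenosine receptor that is paired with the D2 dopamine receptor in striatal neurons, had 553, 691, 530 and 650 CPM in TRAP and 45.2, 88.1, 45.0 and 57.2 CPM in total-RNA (3.41, SE 0.13, adjusted p = 9.0e-07). Drd2 (chr9:49340627-49408177), the D2 dopamine receptor, had 381, 387, 372 and 461 CPM in TRAP against 35.9, 62.4, 32.8 and 44.7 CPM (3.23, SE 0.16, adjusted p = 2.2e-06). In TRAP the 4 animals differed little, and animal 5 had the highest total-RNA level of both receptors and hence the smallest ratio.

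Genes known from the direct and from the indirect striatal pathway were both higher in TRAP. Drd1, the D1 receptor of the direct pathway, had 464, 434, 531 and 358 CPM in TRAP and 88.1, 114, 74.3 and 78.3 CPM in total-RNA (2.34, SE 0.15). The other direct-pathway genes Tac1 (2.68), Pdyn (2.18) and Isl1 (1.95) were near this value. The indirect-pathway genes Penk† (3.34), which encodes the enkephalin precursor, Syndig1l† (3.22) and the orphan receptor Gpr6 (2.93) lay with Drd2 and Adora2a. In a split made after the values were seen, the median of 5 indirect-pathway genes was 3.41, 2.80, 3.48 and 3.36 in animals 2, 5, 8 and 9, and that of 4 direct-pathway genes was 2.27, 1.98, 2.83 and 2.09. The indirect-pathway median was the higher one in every animal, and the difference was not tested. Penk† had 3965, 4603, 4457 and 2955 CPM in TRAP and 263 to 534 CPM in total-RNA.

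The interneuron list also held members of both directions. Of 29 markers, 18 were lower and 7 higher (median -1.14). The summed level went the other way, at 2471 to 3410 CPM in TRAP and 2132 to 2296 CPM in total-RNA on the scale set over all 22 libraries. Among those lower were Ndnf (-3.24), Kcnc2 (-2.81), Vip (-2.76), Calb2 (-2.70), Npy (-2.16) and Pvalb (-1.58), which mark cortical interneuron classes. Sst, another such marker, was not called (-0.40, SE 0.26, adjusted p = 0.21). Those that were higher, Dlx5 (2.86), Slc32a1† (2.59), Dlx6† (2.34), Gabrd (1.97), Reln† (1.06), Gad2 (0.94) and Gad1 (0.84), include the genes for making and loading GABA, which any GABAergic neuron uses. Gad2 had 808, 770, 1056 and 609 CPM in TRAP and 434, 470, 385 and 373 CPM in total-RNA (SE 0.13, adjusted p = 0.00028), so the pools did not overlap.

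**Figure D3:**
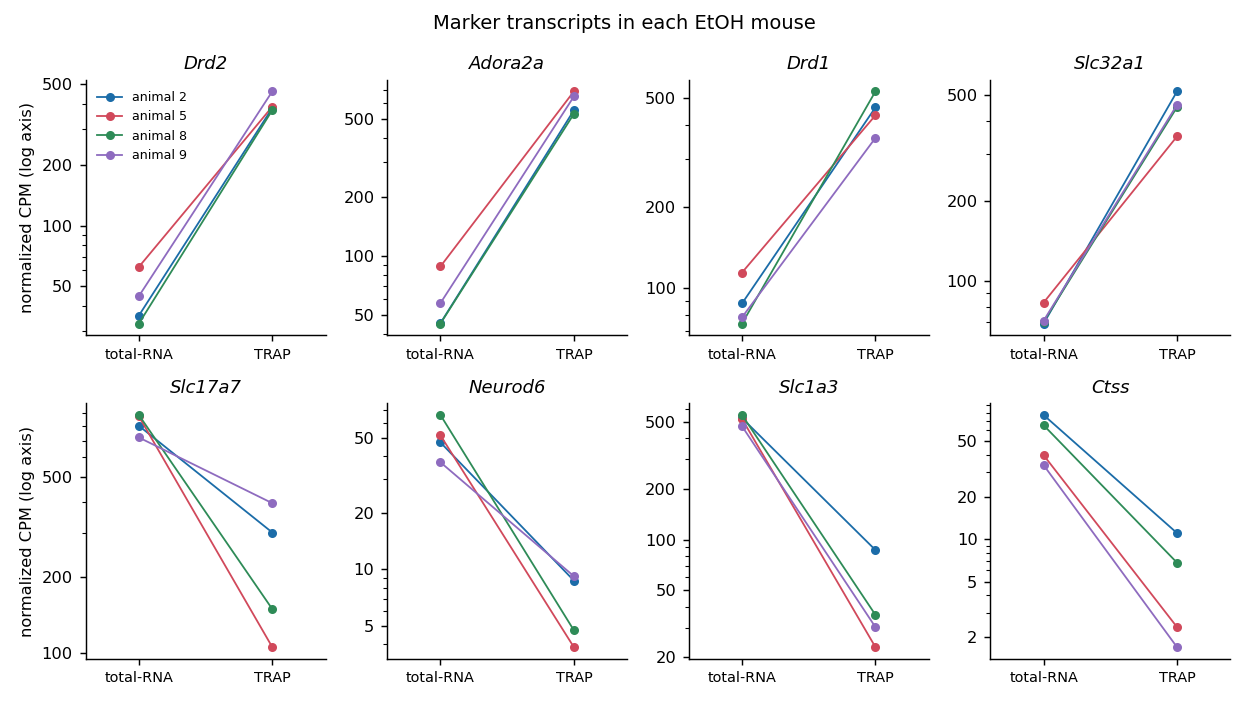
Normalized CPM on a log axis of 8 marker transcripts in total-RNA and TRAP, with 1 line for each EtOH mouse. Drd2, Adora2a, Drd1 and Slc32a1† rise from total-RNA to TRAP in all 4 mice, and Slc17a7, Neurod6, Slc1a3 and Ctss fall in all 4.

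Among protein-coding genes with at least 10 CPM in the higher pool, the 12 with the largest fold changes were Sbsn (3.47), Adora2a, Penk†, Drd2, Syndig1l†, Rxrg (3.12), Tmem158 (3.08), Tmem200b (3.04), Ptpn7 (2.99), Rasd2 (2.99), Cd4 (2.93) and Gpr6. Of these, 6 are on the striatal list. Rxrg, a retinoid X receptor, had 162, 166, 195 and 157 CPM in TRAP and 17.7 to 21.5 CPM in total-RNA (SE 0.12, adjusted p = 9.0e-07). Cd4, best known as a T cell co-receptor, had 159, 215, 174 and 210 CPM in TRAP and 19.01 to 31.4 CPM in total-RNA (SE 0.11, adjusted p = 9.0e-07). Ptprc, a microglial and leukocyte gene below the limit of 10 CPM, was lower in TRAP (-4.99, SE 0.73). It had only 0.5, 0.14, 0 and 0 CPM in TRAP and 4.56, 3.7, 7.4 and 2.3 CPM in total-RNA, so the size of its change is uncertain. The source of the Cd4 reads was not tested. The 12 with the smallest fold changes were 7 mitochondrial mRNAs and Spp1 (-4.24), Ermn† (-4.11), Prom1† (-4.09), Abca9 (-4.06) and Adgrl4 (-4.03). Ermn† is a cytoskeletal protein of oligodendrocytes and Adgrl4 an adhesion receptor of endothelium.

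Mitochondrially encoded mRNAs had the lowest median of the 21 gene lists: all 13 were lower in TRAP, each by at least 2-fold, with a median log2 fold change of -4.51. mt-Nd1, a subunit of complex I, had 746, 212, 605 and 308 CPM in TRAP and 8278, 9281, 16800 and 12900 CPM in total-RNA (-4.79, SE 0.33, adjusted p = 6.5e-06). mt-Co1† had 1970, 608, 1402 and 649 CPM in TRAP and 14820 to 17550 CPM in total-RNA (-3.98, SE 0.30). Animal 2 again had the weakest depletion, with a list median of -2.75 against -5.46, -4.79 and -5.17. mt-Atp8 had no read in any TRAP library; with 3 counts over the 72476030 reads of these libraries as the floor, it was at least 49.2-fold lower than its mean of 2.04 CPM in total-RNA. Reads of the mitochondrial chromosome made up 0.152% to 0.636% of the counts in TRAP and 4.61% to 7.63% in total-RNA. Among called transcripts of other classes with at least 10 CPM in the higher pool, the 5 with the smallest fold changes, Gm10222, Gm10925, Gm28437, Gm28661 and Gm13341 (-4.24 to -4.83), were nuclear pseudogenes. Their values are uncertain, because 100% of the 31-base words of the first 4, and 48% of those of Gm13341, also occur in mitochondrial transcripts.

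Nuclear genes of respiratory complexes I to IV and of cytochrome c moved in the opposite direction. Of 60 tested, 54 were higher in TRAP and none lower (median 0.74), and 14 were at least 2-fold higher. Ndufa1, a small subunit of complex I, had the largest value (1.77, SE 0.11, adjusted p = 5.5e-06), followed by Uqcr11 of complex III (1.67) and Cox6a1 of complex IV (1.37). Cox6a1 had 375, 292, 497 and 406 CPM in TRAP and 126, 144, 181 and 150 CPM in total-RNA, without overlap. Sdha, the catalytic subunit of complex II, had the smallest called value (0.30, SE 0.09, adjusted p = 0.015). The list median was nearly the same in each animal, at 0.66, 0.77, 0.75 and 0.79, and animal 2 did not stand apart here.

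Cytosolic ribosomal protein genes gave 38 of 78 higher and none lower, where 28.1% of all transcripts were higher and 30.7% lower, with a median of 0.41 and 1 gene past 2-fold. Animal 2 differed from the others: the list median was -0.19 in that animal and 0.49, 0.60 and 0.65 in animals 5, 8 and 9, and without animal 2 the members called higher were 58. Leaving out another animal gave 27 to 32 called higher and, without animal 9, 1 lower. Rpl4 had 439, 716, 767 and 697 CPM in TRAP and 513, 463, 538 and 475 CPM in total-RNA (0.37, SE 0.14, adjusted p = 0.049), with animal 2 on the other side of its own total-RNA. Rplp2, an acidic stalk protein of the large subunit, had the largest change (1.02, SE 0.14, adjusted p = 0.00019) and was higher in all 4 animals. The same list had a median of -0.02 in Control and 0.33 in EtOH + ABT-888. None of its members was called for a difference in ratio between EtOH and Control.

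Ribosomal protein mRNAs are known for a run of pyrimidines at their 5′ end, which couples their translation to growth signals. The sequences around the annotated start of Rpl10a and of the 4 most enriched members are shown because this element is read at that position. Each window runs from 40 bases before to 20 bases from the start on, on the gene's own strand (RefSeq starts, GRCm38.p6), with the pyrimidine word CTTTC in capitals where it occurs.
Rpl10a (chr17:28328431-28328490, + strand): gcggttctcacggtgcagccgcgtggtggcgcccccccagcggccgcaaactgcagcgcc
Rplp2 (chr7:141447611-141447670, + strand): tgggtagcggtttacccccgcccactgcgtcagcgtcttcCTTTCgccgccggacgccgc
Rpl41 (chr10:128549149-128549208, - strand): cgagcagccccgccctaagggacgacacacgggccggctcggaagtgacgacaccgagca
Fau (chr19:6057907-6057966, + strand): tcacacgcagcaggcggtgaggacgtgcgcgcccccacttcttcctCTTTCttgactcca
Rps9 (chr7:3704001-3704060, + strand): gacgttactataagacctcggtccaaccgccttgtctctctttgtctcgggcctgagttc
Rplp2 and Fau (0.87) hold the word in this window and Rpl41 (0.97), Rps9 (0.85) and Rpl10a do not. RefSeq's promoter table gave a start window for 57 of the 78 ribosomal protein genes and for 10451 of the genes tested. CTTTC was on the gene's strand in 21 (36.8%) of these ribosomal protein genes, against 8.08% of the genes tested that had a window. Its reverse complement GAAAG was in 5 (8.77%) of the ribosomal protein genes and in 7.13% of the genes tested that had a window. Annotated starts can lie some bases from the true start, and no match says only that these letters are not in this window.

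Initiation and elongation factors gave 19 of 49 higher and 9 lower (median 0.12). Eif1, which helps the ribosome choose the start codon, was the only one past 2-fold upward, with a log2 fold change of 1.52 (SE 0.11, adjusted p = 7.2e-06). Eif5a (0.96), Eif3g (0.66), Eif2b4† (0.66) and Eef1b2† (0.64) were higher as well. Those lower included the inhibitor of cap-dependent initiation Eif4ebp1 (-2.58), the elongation factor 2 kinase Eef2k† (-0.79) and the large scaffolds Eif4g2 (-0.48) and Eif4g3 (-0.47). Eef1a1 had 911, 1700, 1993 and 1625 CPM in TRAP against 1090 to 1323 CPM in total-RNA (0.32, adjusted p = 0.10), with animal 2 low as for the ribosomal proteins.

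Synaptic genes were described by the side of the synapse they serve, and the difference between both lists was not tested. Of 33 dendritic and postsynaptic mRNAs, 17 were higher and 8 lower (5 lower without animal 5 or without the block; median 0.30), and of 22 presynaptic release genes 3 were higher and 8 lower (median -0.12). Dlg4 (PSD-95), the scaffold of the excitatory postsynapse, had 1237, 1220, 1257 and 1200 CPM in TRAP and 583, 610, 619 and 512 CPM in total-RNA (1.08, SE 0.09, adjusted p = 1.8e-05). The replicates differed far less than the pools. Dlgap3 (1.73), Agap2 (1.36), Psd† (1.35), Shank3† (1.14), Grin1† (1.01) and Ddn† (0.97) were also higher, while Dlgap1† (-1.52), Shank1† (-1.20) and Map2† (-1.12) were lower. Of the release genes, Vamp2 (0.92), Cplx2 (0.85) and Cplx1 (0.61) were higher, and Doc2a† (-2.20), the active zone scaffolds Pclo† (-1.52) and Rims1 (-1.41), and Syt1 (-0.71) were lower. Syt1, the calcium sensor of release, had 1318, 1409, 1652 and 1556 CPM in TRAP and 2152, 2288, 2732 and 2511 CPM in total-RNA.

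Of 25 immediate early genes, which neurons induce within minutes of activity, 8 were higher and 10 lower (median -0.26). The shares over all transcripts were 28.1% higher and 30.7% lower. Egr1, an activity-induced transcription factor, had 429, 264, 438 and 168 CPM in TRAP and 175, 99.7, 157 and 69.8 CPM in total-RNA (1.36, SE 0.09, adjusted p = 6.4e-06). The ranges of the pools overlapped because the level varied widely between animals, while the ratio within an animal was steady, at 1.29, 1.41, 1.48 and 1.27. Egr4 (1.49), Egr3 (1.44), Fosb (1.12) and Junb† (1.11) were higher too. Bdnf† (-2.80), Nr4a2 (-2.60), Ier2 (-2.40), Fos (-1.78) and Npas4 (-1.14) were lower, and Arc was not called (-0.16, adjusted p = 0.30). Fos had 6.58, 2.50, 11.0 and 1.16 CPM in TRAP against 22.6, 12.03, 30.7 and 3.48 CPM in total-RNA. Each animal had less Fos in TRAP than in its own total-RNA, and the ranges of the pools overlapped.

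Glucocorticoid-induced genes were mostly lower, at 18 of 24 lower and 5 higher (median -1.37). The 5 were 3 without animal 2 or without animal 9, and 2 without the animal as a block. Sult1a1† (-3.85), Pdk4 (-3.83), Glul† (-2.42), an enzyme of astrocytes, and Tsc22d3 (-1.91) fell, and Klf9 (0.68), Fkbp5 (0.59), Per1 (0.56), Rasd1 (0.47) and Ddit4 (0.36) were higher. Fkbp5 encodes a chaperone of the glucocorticoid receptor and Per1 a clock repressor. The median of this list was -0.57 in Control and -1.12 in EtOH + ABT-888, and no member was called for a difference in ratio. Genes of insulin receptor signalling gave 15 of 42 higher and 13 lower (median 0.13), where 28.1% of all transcripts were higher and 30.7% lower. The receptor itself, Insr, was not called (-0.04), nor was Irs2† (0.21), while Irs1† (-1.79), an adaptor of the receptor, was lower and the transcription factor Foxo1† was higher (1.46, SE 0.13, adjusted p = 1.7e-05). The kinases Akt2 (0.74) and Akt1 (0.42) were higher.

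Of 11 long noncoding RNAs known from the nucleus, 9 were lower and 1 higher (median -1.66). Malat1†, which is held in nuclear speckles, had 814, 740, 767 and 395 CPM in TRAP and 2405, 6819, 3927 and 3614 CPM in total-RNA (-2.58, SE 0.26, adjusted p = 3.6e-05). The pools did not overlap, and the total-RNA of animal 5 was the highest. Neat1 (-2.19), the scaffold of paraspeckles, Meg3† (-1.72) and Rian (-1.53) were lower, and Peg13 was higher (0.24, adjusted p = 0.039), a call that was lost whichever animal was left out and without the animal as a block. Without animal 9 another member, Gm26917, was called higher. Over all 245 lincRNAs tested 45 were higher and 74 lower (median -0.12). Among noncoding transcripts with at least 10 CPM in the higher pool, the largest fold changes were those of Gm39043† (2.33), Gm9989 (2.24), 2010204K13Rik (2.10), Gm15720 (1.61) and Gm10754† (1.54).

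Transcript structure varied with the ratio across the nuclear protein-coding genes. The genes were placed in 5 groups of equal size by each feature. From the group of shortest to that of longest transcripts (median length 1288 and 6662 bases), the median log2 fold change went from 0.35 to -0.33, the share called higher from 44.0% to 16.7% and the share called lower from 17.6% to 48.6%. From the group of lowest to that of highest GC content (median 42.1% and 58.4%) the median rose from -0.32 to 0.40. Coding length (0.23 to -0.25) and 3′UTR length (0.20 to -0.25) followed the same course as transcript length. Spearman's rho across genes was -0.25 for transcript length and 0.287 for GC content; these are descriptions over genes that share the libraries, and length and GC content were not separated from each other or from the cell types that use the genes. Each of the 4 animals showed both trends, with the steepest GC trend in animals 2 and 9, from -0.37 to 0.53 and from -0.50 to 0.53.

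**Figure D4:**
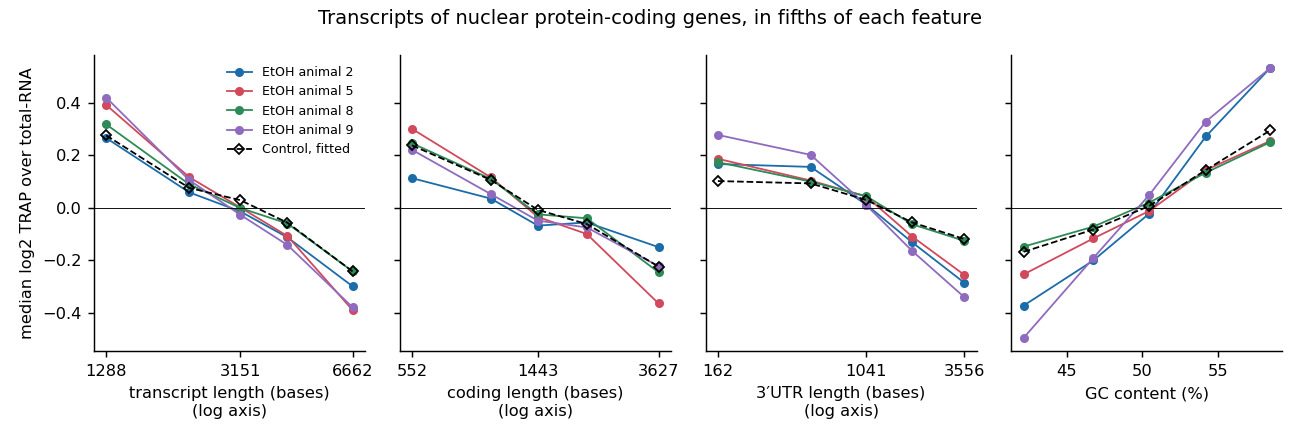
Median log2 TRAP over total-RNA (y axis) of nuclear protein-coding genes in 5 equal groups by transcript, coding and 3′UTR length (log axes, bases) and GC content (%), placed at each group's median, with 1 line per EtOH animal and a dashed line for the fitted medians in Control. In every animal the group of longest transcripts, coding parts and 3′UTRs has a lower median than the group of shortest, and the group of highest GC content a higher median than that of lowest.

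The ratios of the EtOH mice were then compared with those of the other mice. In Control 8788 of the 14072 transcripts were called between the pools. Both groups called 7073, which is 85.5% of the EtOH calls and 80.5% of the Control calls, and 7041 of these had the same direction. In EtOH + ABT-888 7642 were called. Of these, 6914 were shared with EtOH, all in the same direction, which is 83.5% of the EtOH calls and 90.5% of its own. Most transcripts were called in each group (58.8% in EtOH), so a large overlap arises even between unrelated calls. The ratio itself differed between EtOH and Control for 14 of 14072 transcripts (0.0995%) by edgeR's quasi-likelihood test, for 147 by its likelihood ratio test, and for 3 when the animal was not a block. Without animal 5 the count was 3 and without animal 2 it was 9. Between EtOH and EtOH + ABT-888 edgeR's quasi-likelihood test called 0 transcripts (0%), and its likelihood ratio test also 0. By the quasi-likelihood test 408 of the 14072 had an unadjusted p under 0.05, fewer than the share of 0.05 that tests without any difference give on average. Against Control 1488 did so, more than that share. Differences between these ratios that miss the threshold are not shown to be absent.

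The 14 transcripts fell into those that gained and those that lost TRAP reads relative to total-RNA in EtOH. Crym, a thyroid hormone-binding protein, had 195, 191, 109 and 83.8 CPM in TRAP of EtOH animals 2, 5, 8 and 9 and 94.2, 99.7, 77.5 and 64.7 CPM in total-RNA, on a scale set over all 22 libraries. In Control it had 34.0, 19.4 and 35.3 CPM in TRAP and 76.2, 64.8 and 73.3 CPM in total-RNA. Its log2 ratio was thus above 0 in EtOH (0.69) and below 0 in Control (-1.33), a difference of 2.03 (adjusted p = 0.0023). Wfs1, a membrane protein of the endoplasmic reticulum, was higher in TRAP in both groups (1.89 in EtOH and 0.62 in Control, difference 1.27, adjusted p = 0.027). Fdft1† (1.12), the first enzyme committed to sterol synthesis, Prex1 (1.14), Fabp5 (1.49), Camk1g (1.09), Pltp† (2.46), Ap2a2† (0.82) and Arnt2† (0.75) also had the higher ratio in EtOH.

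A lower ratio in EtOH was found for 5 transcripts. Setdb2, a histone methyltransferase, had 7.79, 12.997, 9.83 and 6.73 CPM in TRAP and 19.8, 25.6, 20.6 and 16.8 CPM in total-RNA of EtOH, against 10.0, 8.03 and 9.04 CPM and 5.65, 5.25 and 6.56 CPM in Control (difference -1.80, adjusted p = 0.0093). For this gene the pools differed between the treatments in total-RNA, where EtOH and Control did not overlap, and overlapped in TRAP. Fbln5, an extracellular matrix protein (-2.55), Spon1 (-1.47), the axon guidance molecule Ntng1 (-1.36) and the adiponectin receptor Adipor2 (-1.07) made up the rest. Of all 14, Crym, Prex1 and Setdb2 stayed under an adjusted p of 0.05 whichever EtOH animal was left out. Without the animal as a block, the 3 transcripts called were Crym, Fbln5 and Pltp†, and Prex1 (adjusted p = 0.46) and Setdb2 (adjusted p = 0.52) were not called.

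**Figure D5:**
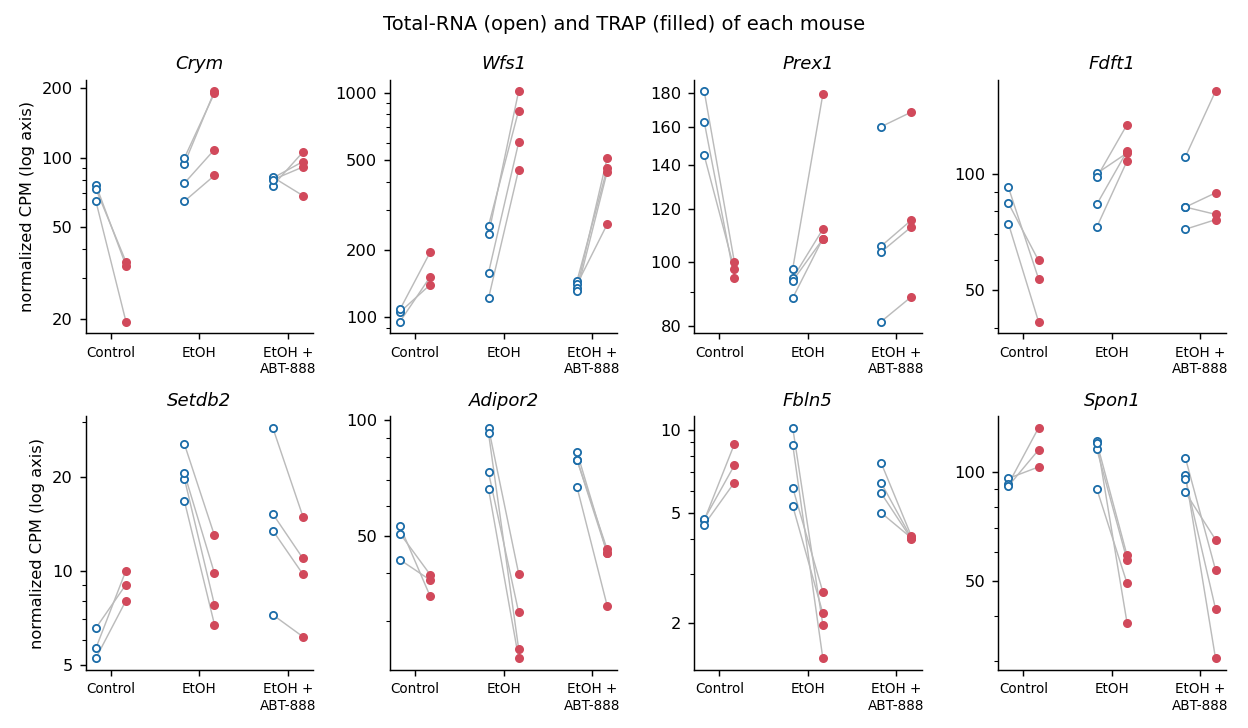
Normalized CPM on a log axis, scaled over all 22 libraries, of 8 of the 14 transcripts whose ratio differed between EtOH and Control, in total-RNA (open) and TRAP (filled) of each mouse, joined within a mouse. Crym lies below total-RNA in TRAP of the 3 Control mice and above it in the 4 EtOH mice, and Setdb2, Fbln5 and Spon1 go the opposite way.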

How the data were processed

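Per the labels, prefrontal cortex was homogenized and centrifuged, 40 µL of supernatant gave total-RNA and the rest was incubated with anti-EGFP antibody for TRAP; after rRNA depletion, libraries were sequenced as paired 50-base reads. The submitters' notes name STAR, featureCounts, edgeR and mm10. The authors deposited raw counts per gene for 39056 genes without normalization; versions and strand setting are not given in the sources used here. Names, positions and lengths came from GENCODE M21, which held 38872 of the IDs.

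Transcripts with at least 500 counts over 22 libraries and a count in at least 3 were tested (14072). The quasi-likelihood F test of edgeR 4.0.16 (R 4.3.3) was run on these counts with TMM factors, the animal as a block and Benjamini-Hochberg adjustment; it gave all adjusted p-values. Ratio differences were the interaction of pool and treatment over all 22 libraries, with the animal as a block. Labels give the same animal number to both pools, and deviations from the pool means correlated within animals at r = 0.326 to 0.407. Between animals they correlated below 0, which subtracting the pool means favours by itself. Log2 CPM of single libraries used a prior count of 1. Alternatives included edgeR's exact test and DESeq2 1.42.0. The tests were tested on simulated data.

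Named genes were the tag's genes, the 12 protein-coding and 5 other genes with the largest and smallest fold changes (called, same direction in 4 animals, at least 10 CPM in the higher pool), members of each list by level, size and direction, and genes called for a ratio difference. Further list members and groups were named after their values were seen. The members and lists were chosen with earlier results of these data known. Depth limits genes under about 1 CPM; floors cover counting error only. Some genes are not reported here.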

Additional observations from a re-analysis of the deposited data

Results flagged for a closer look

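An animal far from the other 3 was found for 13 of 251 values examined by Dixon's criterion, and chance alone flags about 1 in 20 such groups. Animal 2 was the distant one for the log2 ratio of Prex1 (0.84), Slc2a1† (-1.51), Rpl4 (-0.23), Per1 (0.92), Eif2s1 (-0.62), Rpl3 (-0.19), Itm2a (-1.28) and Irs4† (-2.51). Animal 8 was distant for Foxo1† (1.91), Slc4a4 (0.96) and Gsk3b (0.48), and animal 5 for Drd2 (2.63) and Adora2a (2.97).

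The log2 TRAP to total-RNA ratio differed between EtOH and Control, by the interaction test, for 14 transcripts. It was higher in EtOH for Pltp† (2.46), Crym (2.03), Fabp5 (1.49), Wfs1 (1.27), Prex1 (1.14), Fdft1† (1.12), Camk1g (1.09), Ap2a2† (0.82) and Arnt2† (0.75). It was lower in EtOH for Fbln5 (-2.55), Setdb2 (-1.80), Spon1 (-1.47), Ntng1 (-1.36) and Adipor2 (-1.07).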

How the results depend on the processing

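The number of transcripts called between the pools was 8276 with the animal as a block and 7141 without it (no pairing), and 7101 of the latter were shared, all in the same direction. Other settings gave 6303 (adjusted p under 0.01) to 8834 (no filter), and leaving out 1 animal 7221 to 7602, all within 1.5 times. Cytosolic ribosomal protein genes called higher, 38, ranged from 27 to 58 over the animals left out, 58 being without animal 2. Small list counts also moved by over 1.5 times: glucocorticoid-induced genes called higher (5) were 2 without the block and 3 at an adjusted p under 0.01 or without animal 2 or 9, postsynaptic mRNAs called lower (8) were 5 without the block, at 0.01 or without animal 5, and translation factors called lower (9) were 5 at 0.01. The lone higher microglial and nuclear noncoding transcripts, Cd68 and Peg13, were lost without the block and at 0.01, and Peg13 also with no filter. Transcripts whose ratio differed between EtOH and Control, 14, were 2 at an adjusted p under 0.01, 3 without the block, 147 by the likelihood ratio test, and 3 (without animal 5) to 19 (without animal 8) with an animal left out. The count against EtOH + ABT-888 was 0 in every setting run. Signs reversed for uncalled genes only: Mt1 (-0.05 without animal 2, up to 0.52), Homer1 (-0.08 without animal 8, up to 0.15), Gsk3b (-0.0008 without animal 8, up to 0.17) and Synpr (0.08 without animal 9, down to -0.15); the cause was not tested. With no filter, which lets in weakly counted transcripts, the median over transcripts was -0.25 (0.01 with it). With 4 animals, small changes of weakly counted transcripts were not detectable.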
